A study of Homo sapiens with 5 samples.

Results

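Epithelial splicing regulators are RNA-binding proteins that decide which optional exons are kept when epithelial and mesenchymal cells process the same genes. The set described here holds 10 genes of the 61220 with an annotated transcript in the tables, chosen by name: the regulators ESRP1, ESRP2, RBFOX2 and QKI, and the target genes CD44, CTNND1, FGFR2, ENAH, SLK and MAP3K7. GENCODE v44 assigns 230 transcripts to them, of which 180 were matched and analysed. The other 50, mostly of MAP3K7 (18), FGFR2 (14) and CTNND1 (11), were not analysed here.

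The RNA came from NCI-H1975 and HCC827, established lines of human lung adenocarcinoma grown separately, with no treatment named in the labels. Poly(A) RNA of NCI-H1975 carried sequins (synthetic spike-in transcripts) of mix A, and that of HCC827 was labelled with mix B. In the mixtures HCC827 contributed 0, 25, 50, 75 or 100% by mass, libraries are named from 100:0 to 0:100 with NCI-H1975 first, and all were read as PCR-amplified cDNA on a nanopore PromethION flow cell. Each ratio is 1 library from 1 RNA preparation per line, so the error of a trend is the scatter of 5 libraries and covers no difference between cultures.

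ESRP1 and ESRP2 are closely related proteins expressed in epithelial cells, where they bind UGG-rich RNA and favour the epithelial forms of their targets. RBFOX2 binds UGCAUG and QKI binds ACUAA motifs, and both are known for promoting mesenchymal forms. In epithelial cells CD44 tends to keep variable exons, ENAH keeps exon 11a, and p120 catenin, the product of CTNND1, starts more often at a downstream codon.

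The exons on which these forms turn are shown as they stand in the GRCh38 (hg38) genome, 5′ to 3′ on the strand of the gene. Capitals mark the exon, and lower case marks 20 bases of intron on each side. ENAH exon 11a (chr1:225504991-225505053, minus strand, 63 bases), the SLK exon (chr10:104010816-104010908, plus strand, 93 bases), the MAP3K7 exon (chr6:90544552-90544632, minus strand, 81 bases) and the RBFOX2 exon (chr22:35756105-35756144, minus strand, 40 bases) are cassette exons, either kept whole or skipped.
ENAH exon 11a: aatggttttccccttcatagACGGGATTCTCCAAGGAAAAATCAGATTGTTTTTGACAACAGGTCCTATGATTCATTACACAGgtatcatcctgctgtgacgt
SLK 93-base exon: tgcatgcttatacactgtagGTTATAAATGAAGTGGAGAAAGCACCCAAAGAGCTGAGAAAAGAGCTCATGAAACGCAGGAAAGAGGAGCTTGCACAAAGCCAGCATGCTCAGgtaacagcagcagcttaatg
MAP3K7 81-base exon: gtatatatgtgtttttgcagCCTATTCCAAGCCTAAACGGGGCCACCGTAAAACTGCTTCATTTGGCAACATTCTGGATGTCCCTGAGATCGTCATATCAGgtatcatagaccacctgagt
RBFOX2 40-base exon: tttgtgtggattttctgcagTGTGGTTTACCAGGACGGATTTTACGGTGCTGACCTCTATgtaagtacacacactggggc
The first 3 have lengths divisible by 3, so that keeping them adds residues without changing the reading frame. The RBFOX2 exon does not.

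CD44 has a block of 9 variable exons between its constant exons, and all 9 have lengths divisible by 3. The last 3 of the block (chr11:35208105-35208206, chr11:35209965-35210054 and chr11:35211246-35211449, plus strand), which are v8 to v10 in the usual naming, are shown because they are the variable exons of the transcript CD44-209.
CD44 variable exon 7: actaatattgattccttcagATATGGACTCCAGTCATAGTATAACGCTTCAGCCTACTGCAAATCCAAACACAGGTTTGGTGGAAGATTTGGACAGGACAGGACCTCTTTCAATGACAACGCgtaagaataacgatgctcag
CD44 variable exon 8: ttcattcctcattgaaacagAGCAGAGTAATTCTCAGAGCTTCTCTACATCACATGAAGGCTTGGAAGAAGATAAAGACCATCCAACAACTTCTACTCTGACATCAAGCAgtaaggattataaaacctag
CD44 variable exon 9: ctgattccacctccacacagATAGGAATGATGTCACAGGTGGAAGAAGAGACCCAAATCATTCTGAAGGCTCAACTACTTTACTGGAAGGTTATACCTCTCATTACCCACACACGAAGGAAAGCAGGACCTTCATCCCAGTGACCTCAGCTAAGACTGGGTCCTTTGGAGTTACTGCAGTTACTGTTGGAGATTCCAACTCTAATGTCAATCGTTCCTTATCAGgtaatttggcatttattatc

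The known binding motifs were looked up in 15 exons (the 9 variable exons of CD44, 3 exons of RBFOX2 and those of ENAH, SLK and MAP3K7) and in 250 bases of intron on each side, on the sense strand only because these proteins bind RNA, with overlapping matches counted. None of the 3 motifs contains another. Over 124730 internal exons of protein-coding genes, TGGTGG was present upstream of 9.56% and downstream of 11.3%, TGCATG upstream of 7.53% and downstream of 7.91%, and ACTAAC upstream of 3.29% and downstream of 3.01%. TGCATG occurred 3 times upstream of the SLK exon, nearest at 20 bases, and 3 times upstream of the MAP3K7 exon, nearest at 32 bases, as well as once downstream of it. It also occurred once 13 bases upstream of CD44 variable exon 6, once 83 bases upstream of the RBFOX2 40-base exon, and once downstream of CD44 variable exon 9 (222 bases) and of the RBFOX2 32-base exon (72 bases). TGGTGG occurred 2 times downstream of CD44 variable exon 7 and once inside that exon, 3 times downstream of variable exon 8, and once upstream of variable exon 9. Printed with their surroundings, the motif in capitals, are the nearest of the 3 matches in each window that held 3.
SLK upstream intron: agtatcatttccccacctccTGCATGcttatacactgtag
MAP3K7 upstream intron: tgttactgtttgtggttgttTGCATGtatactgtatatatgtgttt
CD44 variable exon 8 downstream intron: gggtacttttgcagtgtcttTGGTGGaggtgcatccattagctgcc
ACTAAC occurred once upstream of the SLK exon and once upstream of the RBFOX2 54-base exon, and the windows of ENAH exon 11a held none of the 3 motifs. These matches are letters in a window, not measured binding.

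Library totals ran from 2932250 to 4058751 reads, and the scatter about the fitted trend over all genes came to a biological coefficient of variation of 9.11%. The 0:100 library, labelled with sequin mix B, held 0 sequin reads, against 5475, 4678, 2830 and 1269 in the others, so member results are also given without it. The mean length of the assigned transcripts fell from 2578.5 bases at 100:0 to 2179.7 bases at 0:100, with the mixed libraries in order between. The lines bore their epithelial label: EPCAM, which marks epithelial cells, lay between 371 and 397 CPM (counts per 1000000 reads) in every library, and NKX2-1, a lung lineage factor, rose from 41.2 to 110 CPM. Among markers of other cells, PTPRC, CD3E and LYZ had 0 reads and PECAM1 and VWF at most 3 in a library, whereas COL1A1, a collagen gene of mesenchymal cells, had 532 reads at 100:0 and 19 at 0:100. VIM and FN1, markers of the mesenchymal state, had fitted slopes of -3.62 and -2.13 on the log2 scale toward HCC827, and CDH2 had at most 1 read. Any part of these differences in the member results was not tested.

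All CPM levels are after TMM scaling between libraries. A slope is the fitted log2 change from 100:0 to 0:100, given ± its standard error. The fit is a straight line in log2, so a steep slope can differ from the log2 ratio of the pure libraries. VIM, with a slope of -3.62, had a ratio of 23.3 between 100:0 and 0:100. A gene is called where the edgeR quasi-likelihood test, adjusted over 13492 genes by the Benjamini-Hochberg method, gives p under 0.05. Of these genes 45.8% were called, 23.5% rising and 22.3% falling toward HCC827. Of the 10 members, 9 passed the read filter, with at least 10 reads in each library, and 8 were called, 3 rising and 5 falling. With the background this high, a called member is not by itself set apart from other genes. In bulk RNA, fewer cells of a kind and less RNA per cell cannot be told apart.

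**Figure D1:**
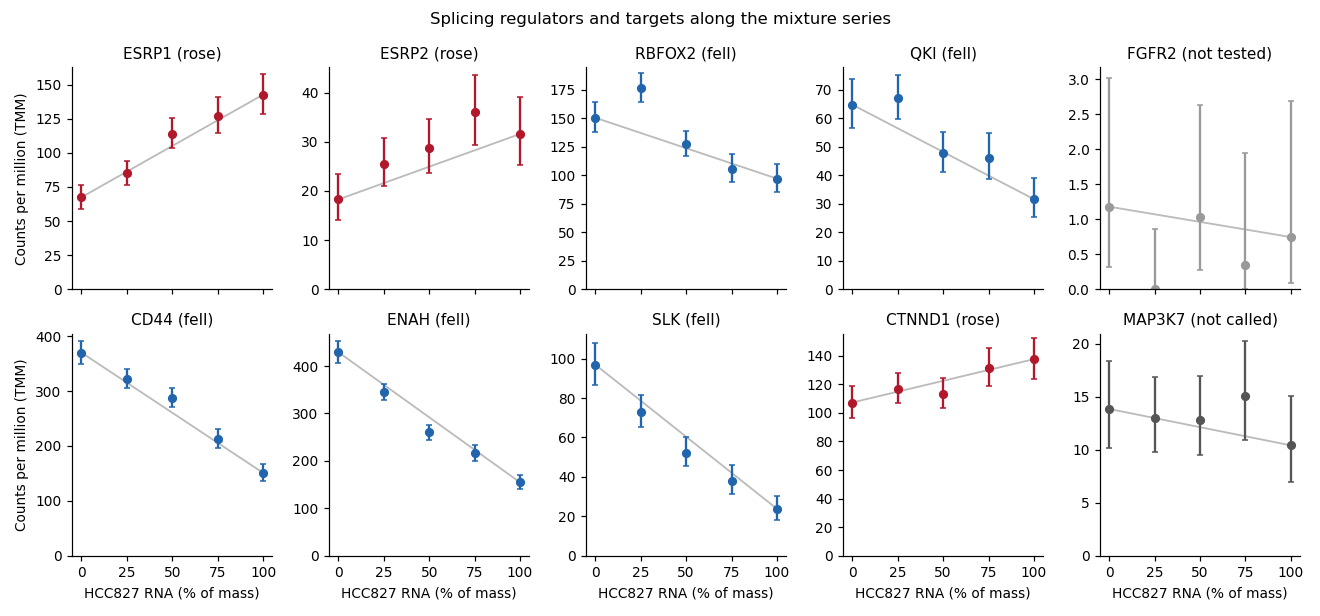
Level of each member in CPM (TMM scaled, axis from 0) against the HCC827 share of RNA mass. Points are single libraries, bars are exact 95% Poisson intervals for counting error, and the grey line joins the pure libraries. ESRP1 runs upward from 67.5 to 143, and CD44, ENAH and SLK run downward in order.

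Both epithelial regulators were higher in HCC827. ESRP1 (chr8:94641074-94707466, plus strand) had 67.5, 85.2, 114, 127 and 143 CPM from 100:0 to 0:100, in order and with the Poisson intervals of the pure libraries apart (59.0 to 76.8 against 129 to 158). Its slope was 1.09 ± 0.14 (edgeR adjusted p = 5.88e-05), a ratio of 2.12 between the pure libraries. Without the 0:100 library the slope was 1.26 (adjusted p = 0.000336).

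ESRP2 (chr16:68229033-68238102, minus strand) had 18.3, 25.5, 28.7, 36.0 and 31.6 CPM, so the highest value stood at 25:75 and not at the pure end. Its slope was 0.81 ± 0.24 (edgeR adjusted p = 0.0153), and 1.22 (adjusted p = 0.00776) without the 0:100 library. The call was lost without the 100:0 library (adjusted p = 0.193) or the 25:75 library (0.0521), with protein-coding transcripts alone (0.0966), and with total reads as the only scaling (slope 0.40, adjusted p = 0.178). Exons of ESRP2 overlap those of NFATC3 on the opposite strand, which had 577 reads against 472 of ESRP2, and a same-strand gene (ENSG00000262160) with 134, while the handling of strand is not given in the sources used here. Per kilobase of assigned transcript, ESRP1 exceeded ESRP2 in every library, at 21.3 against 5.80 CPM per kilobase in 100:0 and 45.1 against 10.0 in 0:100. ESRP1 had between 3.35 and 4.52 reads for each ESRP2 read.

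The regulators tied to the mesenchymal state went the other way. RBFOX2 (chr22:35738736-36028824, minus strand), whose protein binds UGCAUG, had 151, 177, 128, 106 and 97.0 CPM. The 75:25 library was the highest, 28.7% above the line between the pure libraries and outside its Poisson interval. The slope was -0.81 ± 0.17 (edgeR adjusted p = 0.00188), and -0.80 (0.0225) without the 0:100 library. QKI (chr6:163414000-163578592, plus strand), a STAR-family protein with roles in splicing and RNA stability, had 64.8, 67.2, 47.7, 46.1 and 31.6 CPM. Its slope was -1.02 ± 0.20 (edgeR adjusted p = 0.000987) with the 75:25 library again the highest, and -0.80 (0.0254) without 0:100.

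Among the targets, CD44, ENAH and SLK fell in order over all 5 libraries. CD44 (chr11:35138882-35232402, plus strand), a surface receptor for hyaluronan, had 370, 322, 287, 213 and 151 CPM, 2.45-fold higher in the pure NCI-H1975 library. The slope was -1.26 ± 0.14 (edgeR adjusted p = 2.56e-05). ENAH (chr1:225486765-225653142, minus strand), an actin regulator at the leading edge of cells, had 429, 345, 260, 216 and 155 CPM and a slope of -1.44 ± 0.12 (adjusted p = 3.81e-06). SLK (chr10:103967140-104029233, plus strand), a kinase of the cytoskeleton, showed the steepest fall of the 9 tested members, from 96.9 through 73.0, 52.4 and 38.1 to 23.8 CPM, with a slope of -1.95 ± 0.16 (edgeR adjusted p = 4.08e-06) and a ratio of 4.07. Without the 0:100 library the slopes were -1.01, -1.36 and -1.81, all still called.

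CTNND1 (chr11:57753243-57819546, plus strand), whose product p120 catenin stabilises cadherins at junctions, had 107, 117, 113, 131 and 138 CPM. The slope of 0.35 ± 0.13 passed the threshold (edgeR adjusted p = 0.0343), but it was not called without the 100:0, 75:25, 25:75 or 0:100 library (adjusted p from 0.0639 to 0.167), and it was -0.05 with total reads as the only scaling. That scaling moved the median slope of all genes from -0.03 to -0.44. MAP3K7 (chr6:90513573-90587086, minus strand), the kinase TAK1 of TGF-beta and inflammatory signalling, had 13.8, 13.0, 12.8, 15.0 and 10.4 CPM, with overlapping intervals and a slope of -0.20 ± 0.31 (edgeR adjusted p = 0.626).

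FGFR2 (chr10:121478332-121598458, minus strand) was hardly read. It had 4, 0, 4, 1 and 2 reads, and the 0 at 75:25 allows up to 3 reads or 0.695 CPM. It was not tested.

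The mixed libraries can be read against the straight line between the pure ones, since mixing by mass is linear in expression before scaling between libraries. The line was drawn on TMM-scaled levels, with scaling factors that ran from 1.16 at 100:0 to 0.870 at 0:100. Which values leave the line can therefore depend on the scaling, and this was not tested. For the 9 members with enough reads, the line lay inside the exact Poisson interval in 21 of 27 mixed values. The exceptions were RBFOX2 and QKI at 75:25 (28.7% and 18.9% above the line), ESRP2 at 25:75 (27.3% above), CD44 at 50:50 (10.3% above), and ENAH and SLK at 50:50, where the values lay below the line (-11.0% and -13.3%). Poisson intervals cover counting error only, and error between libraries cannot be measured with 1 library per ratio.

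Transcript length ran with the slopes over all genes. The median slope was 0.39 for 1209 genes with a mean assigned length under 1000 bases and -0.36 for 1591 genes over 6000 bases. ENAH, SLK and QKI, at 7779, 7727 and 7119 bases, belong to the longest range, in which 32.1% of genes fell and 10.9% rose. CD44, ESRP1 and ESRP2, at 3455, 3166 and 3147 bases, lie in a range with a median slope of -0.12. When the length trend of each library was removed, an alternative added after the data were seen, the same 8 members were called, with slopes of -1.11 for ENAH, -1.62 for SLK, -0.71 for QKI, -1.16 for CD44, 1.15 for ESRP1 and 0.61 for CTNND1, the last up from 0.35.

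**Figure D2:**
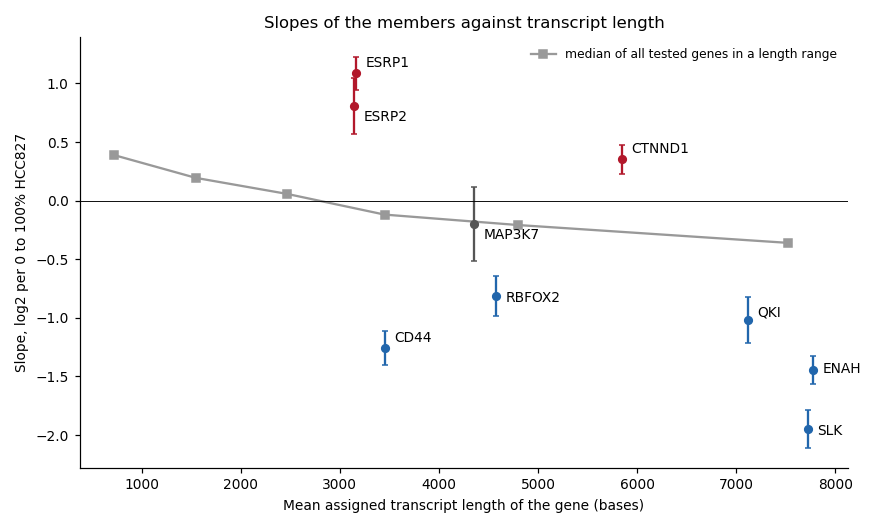
Slope (log2 per 0 to 100% HCC827) with its standard error for the 9 tested members against the mean length of the transcripts their reads were assigned to. Grey squares are medians of all tested genes in 6 length ranges, falling from 0.39 to -0.36, and all called members lie further from 0 than the grey line or on its other side.

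The shares of splice forms were then compared, to ask whether the targets changed form as well as amount. A share is the reads of transcripts with the form over the reads of all transcripts that show either form, given with a Clopper-Pearson 95% interval. The tables hold reads per annotated transcript, not reads per exon, so an exon's share depends on how reads were assigned among transcripts. Of 14 shares with at least 20 informative reads in each library, 0 had an adjusted p under 0.05 and 0 an unadjusted p under 0.05 (two-sided exact permutation test over the 120 orders of the libraries, smallest possible p = 0.0167). With 14 shares, at least 5 would have to reach that smallest value to pass the adjustment.

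No change in the division of CD44 between variant and standard forms was detected. The variant share was 54.7% (51.7 to 57.6) in 100:0, then 56.2%, 55.6% and 55.3%, and 55.3% (49.8 to 60.6) in 0:100, so the pure libraries' intervals overlapped while total CD44 fell 2.45-fold. An even split of reads among transcripts with the same annotated 3′ end would give 55.1% at 100:0 and 55.7% at 0:100. These lie inside the intervals, so this share cannot tell an unchanged division of forms from an even assignment of reads. Transcripts with ENAH exon 11a held 72.7% (70.0 to 75.3), 71.6%, 75.6%, 73.6% and 75.2% (70.1 to 79.8) of informative reads. The slope was 2.75 percentage points (exact permutation p = 0.233, adjusted 0.622). Only 20.5% of the informative ENAH reads were of transcripts with the exon within 3000 bases of the 3′ end. The ENAH share therefore also depends on how reads were assigned.

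The SLK transcript forms with the 93-base exon were assigned 52.9% (47.3 to 58.4), 51.7%, 50.0%, 57.8% and 56.2% (43.3 to 68.6) of reads, from 329 informative reads at 100:0 down to 64 at 0:100. The exon lies 4344 bases from the main 3′ end. An even split of reads within 3′ ends would give 49.5 to 50.0%, inside every interval, so this share cannot show how often the exon was kept. MAP3K7 had 27 to 53 informative reads in a library, and the share of its 81-base exon ran from 25.9% to 46.5% with no order. At that depth the interval in 0:100 was 11.1 to 46.3%, which overlaps those of the other 4 libraries.

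RBFOX2 carries cassette exons of its own, and the share of its 40-base exon was 54.8% (50.2 to 59.3), 54.3%, 54.0%, 59.4% and 61.4% (55.1 to 67.4), level over the first 3 libraries and higher in the last 2. The slope of 7.36 percentage points, the steepest rise of the 14 shares, had an exact permutation p of 0.1 (adjusted 0.467). Transcripts with the 54-base exon of RBFOX2 held 91.3 to 93.9% of informative reads. For QKI, whose last coding exon sets the protein's tail, the QKI-5 tail took 42.3 to 51.9% of reads, QKI-6 42.5 to 48.3% and QKI-7 4.96 to 10.3%, none of them in order. The QKI-6 reads were almost all those of QKI-204 (348 of 380), which GENCODE v44 classes as subject to nonsense-mediated decay. Its 3′ end (chr6:163573800) lies beyond the QKI-5 stop (163570707) and before the end of QKI-203 (163578592), which held most QKI-5 reads. No other QKI transcript shares either end. The QKI-5 and QKI-6 shares may therefore reflect 3′ end position as well as the tail, and these were not tested apart.

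CTNND1 starts at codon 1 took 33.3% (28.5 to 38.4), 34.3%, 34.1%, 34.3% and 39.6% (34.5 to 44.8) of reads, a slope of 4.98 percentage points (exact permutation p = 0.0667, adjusted 0.467). Without the 0:100 library the slope was 1.09 (exact permutation p = 0.333), and with transcripts of at least 10 reads in 2 libraries it was 3.70 (p = 0.0333). This is the longest form, known from mesenchymal cells. Starts at codon 102, the form known from epithelia, took 22.9% (18.6 to 27.5) at 100:0 and 19.5% (15.6 to 23.9) at 0:100, with the mixed libraries between 24.4% and 26.1%. Starts at codon 55 and codon 324 took 23.1 to 27.0% and 14.2 to 18.2%. CTNND1-205 and CTNND1-209, both with the start at codon 1, have a 3′ end of their own. Its share was 12.1% at 100:0 and 17.6% at 0:100. An even split of reads within 3′ ends would give codon 1 31.0% and 38.3% in these libraries, and codon 102 26.3% and 23.5%. All lie inside the intervals, so these shares cannot show the choice of start.

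**Figure D3:**
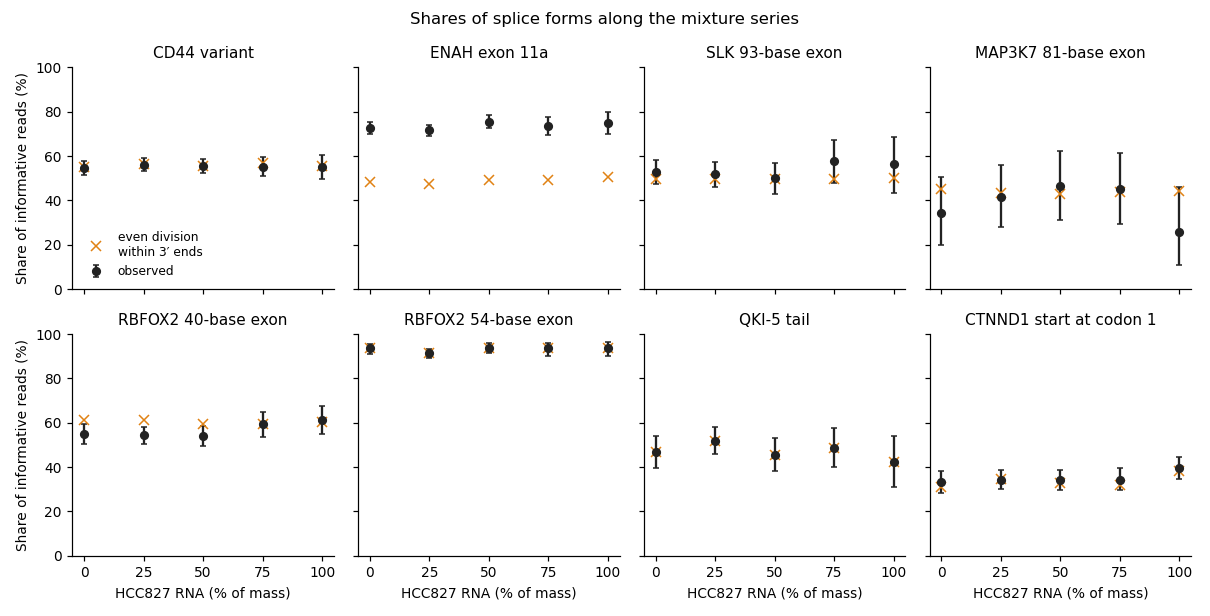
Share of informative reads (%) that carry each form against the HCC827 share of RNA mass. Black points are the observed shares with Clopper-Pearson 95% intervals, and orange crosses are the shares if reads were split evenly among transcripts with the same annotated 3′ end. The crosses lie inside the intervals for CD44, SLK, MAP3K7 and CTNND1. Those of QKI-5 and the RBFOX2 54-base exon equal the observed shares by construction because their transcripts share no 3′ end with other forms. For the RBFOX2 40-base exon the crosses lie above the intervals at 100:0, 75:25 and 50:50 (61.16%, 61.25% and 59.32%). ENAH exon 11a stands at 71.6 to 75.6% against crosses near 48 to 50%.

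Isoform usage was also tested over whole genes. Of 7456 genes tested with diffSpliceDGE of edgeR, 0.429% were called, and 0 of the 9 members tested were called. The 2 MAP3K7 transcripts tested, MAP3K7-205 and MAP3K7-203, both lack the 81-base exon, so the test could not show a change of that exon. The 2 SLK transcripts tested were SLK-202 and SLK-201, whose reads were split almost evenly, so it carries the same limit as the SLK share. By the edgeR test CD44 (adjusted p = 0.131) and ESRP1 (adjusted p = 0.642) were the 2 members whose unadjusted Simes p lay under 0.05. With the gene-level F test 0 of 9 were called and 1, CD44, had an unadjusted p under 0.05. Of 73 member transcripts tested by the edgeR slope, 28 were called, beside 33.6% of all transcripts tested, so the count does not set the members apart. Of those called, 6 rose (5 of ESRP1, 1 of ESRP2) and 22 fell. Of CD44, 8 of 10 fell, of ENAH 7 of 8, of RBFOX2 3 of 7, of QKI 2 of 3 and of SLK both, while 0 of 28 of CTNND1 and 0 of 2 of MAP3K7 were called. Of the 28 CTNND1 transcripts, 17 had slopes above 0. The transcript CD44-232 had a slope of 0.74, not called, while its gene fell.

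The retained-intron transcript ESRP1-205 had 4, 7, 10, 21 and 23 reads and a slope of 3.11 ± 0.58 (edgeR adjusted p = 0.000362), or 1.75% of ESRP1 reads at 100:0 and 5.99% at 0:100. A retained-intron transcript of CD44, CD44-232, had 11, 29, 17, 19 and 20 reads while its gene fell, so its share went from 0.876% to 4.93% (exact permutation p = 0.0333). Both have 3′ ends of their own, far upstream of the gene's main end. Adjusted over the 31 groups of member transcripts with the same 3′ end, a comparison chosen after the data were seen, 0 shares had an adjusted p under 0.05, and the smallest adjusted p was 0.207.

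Reads were divided almost evenly among many transcripts that share an annotated 3′ end. CD44-201, the standard form, had 1291 reads, and CD44-208, which holds all 9 variable exons and ends at the same base, had 1271. CD44-207 had 579 and CD44-209, with variable exons 7 to 9, had 566; this pair also differs by a constant exon of 134 bases. SLK-202 with the 93-base exon had 538 and SLK-201 without it 479. The 26 CTNND1 transcripts with a common 3′ end had 53 to 94 reads each with a median of 62, a coefficient of variation of 14.8% where Poisson counting alone gives 12.5%. For the 6 ESRP1 transcripts at the gene's main end, with 244 to 297 reads, these were 6.72% and 6.11%.

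The same comparison was made over all genes. Where the 2 transcripts with most reads had 3′ ends within 10 bases (4024 genes), the median ratio of their reads was 1.14, and 75.8% of the ratios lay under 1.5. Where the ends were further apart (2761 genes) the median was 1.66, and 43.7% lay under 1.5. The variable block that separates CD44-208 from CD44-201 lies 3488 bases from their 3′ end, that of CD44-209 1113 bases, and the exon of SLK 4344 bases.

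ENAH was an exception. ENAH-204, with exon 11a, had 2554 reads and ENAH-203, without it, 594. Their 3′ ends lie 6 bases apart, and exon 11a lies 11115 bases from the end. The pair also differs in the length of the first exon (457 against 438 bases), so its share is not a measure of exon 11a alone. The share of ENAH-204 within the pair was 80.7% (78.0 to 83.2) at 75:25 and 80.9% (75.6 to 85.5) at 0:100. RBFOX2-209, with the 40-base exon, and RBFOX2-205, without it, had 521 and 757 reads. The share of RBFOX2-209 within this pair was 37.1% (31.4 to 43.1), 38.2%, 41.5%, 45.4% and 47.9% (39.5 to 56.4), in order, and no test is given because the pair was chosen after its values were seen. The transcripts of this pair also differ in their first exons. In the other pair that differs by this exon, RBFOX2-210 held 54.5% of the pair's reads at 100:0 and 60.3% at 0:100, with 48.2% at 75:25 between.

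**Figure D4:**
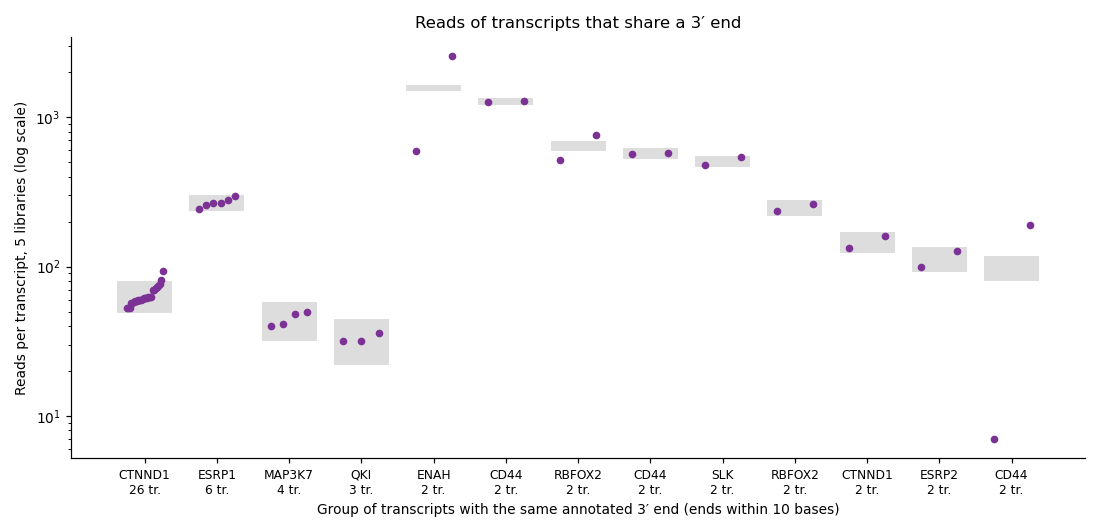
Reads of each transcript over the 5 libraries (log axis) in the 13 groups of member transcripts with the same annotated 3′ end and at least 100 reads. Grey bands are the group mean with its 95% Poisson range. All transcripts of 9 groups lie within their bands. Outside lie the ENAH pair (594 and 2554), 1 RBFOX2 pair (521 and 757), 1 CD44 pair (7 and 191) and 2 of the 26 CTNND1 transcripts (81 and 94 against a band up to 80.2).

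When only transcripts whose event lies within 3000 bases of their 3′ end were used, an alternative added after the data were seen, the CD44 variant share was 60.6% (55.7 to 65.3) at 100:0 and 68.4% (59.8 to 76.2) at 0:100, and that of ENAH exon 11a was 41.0% (34.7 to 47.5) and 52.3% (39.5 to 64.8). These rest on 416 and 133 reads of CD44 and 239 and 65 of ENAH, and the intervals of the pure libraries overlap. The exact permutation p was 0.0833 and 0.0667. With reads split evenly within 3′ ends, the CD44 share would be 63.6% at 100:0 and 64.7% at 0:100. Both lie inside the intervals, so the CD44 share cannot show the choice of variable exons. For ENAH, the reads with exon 11a were all those of ENAH-202, a retained-intron transcript, against ENAH-209 and ENAH-206. Each of these has a 3′ end of its own, so the ENAH share compares 3′ ends and cannot show the choice of exon 11a. Under the same limit of 3000 bases the share of the RBFOX2 40-base exon was 78.0%, 74.1%, 71.9%, 79.0% and 79.1%. Its slope fell from 7.36 to 2.86 percentage points (exact permutation p = 0.55). The other RBFOX2 exons had slopes of -0.52 (32 bases, exact permutation p = 0.783) and 1.75 (54 bases, exact permutation p = 0.6).

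The same fit was read for 3 lists of related genes, chosen with earlier results of these data known. Of 22 other splicing regulators 19 were tested, and 4 rose and 7 fell, with a median slope of -0.10 against -0.03 over all tested genes, of which 23.5% rose and 22.3% fell. Without the 0:100 library 6 rose and 4 fell, with a median of 0.17. The counts were 2 and 8 without the 100:0 library and 4 and 4 without the 75:25 library. CELF2, a regulator of muscle and brain splicing, rose from 1 read to 35 (slope 3.58 ± 0.67, edgeR adjusted p = 0.000861). KHDRBS3 (slope 1.58) and PTBP1, the polypyrimidine tract binding protein (0.76), also rose, KHDRBS3 not being called without the 100:0 library (adjusted p = 0.0676). MBNL2 (-1.80), MBNL1 (-0.95) and HNRNPH1 (-0.93) fell furthest. The muscleblind proteins MBNL1 and MBNL2 are known for splicing changes during differentiation. RBFOX1 and RBFOX3, the other members of the RBFOX family, had 0 reads in every library. HNRNPM, known to oppose ESRP1 on CD44 exons, had 313, 374, 272, 382 and 235 CPM and was not called (slope -0.28 ± 0.23), although it passed without the 100:0 library (adjusted p = 0.0382) or the 25:75 library (0.0427) and with total reads as the only scaling (slope -0.69, adjusted p = 0.021). Without the 0:100 library its slope was 0.17 (adjusted p = 0.619).

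Of 12 other genes with ESRP-dependent exons, all tested, 2 rose and 5 fell, with a median slope of -0.24, beside 23.5% rising and 22.3% falling over all genes. EXOC7, an exocyst subunit, rose from 20.3 to 72.1 CPM (slope 1.62), and SCRIB, a polarity protein, from 29.5 to 62.5 (1.19). ARHGEF11 (-1.54), FNIP1 (-1.02) and OSBPL3 (-0.95) fell furthest. Without the 0:100 library 2 genes rose and 2 fell, with FNIP1 and OSBPL3 no longer called, and without the 100:0 library 2 rose and 2 fell, with ARHGEF11 and FNIP1 no longer called. With the length trend removed 3 rose and 3 fell. Isoform usage was called in 0 of the 10 of these genes tested (diffSpliceDGE, Simes), with SCRIB and LRRFIP2 at an unadjusted p under 0.05.

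Among 14 transcription factors of the epithelial and mesenchymal states 10 were tested, of which 5 rose and 3 fell. Over all genes 23.5% rose and 22.3% fell. The median slope of 1.03, beside -0.03 over all genes, depended on the read filter. It was 0.04 with 10 reads in every library (5 tested, 2 rose and 1 fell). Without a read filter it was 0.03 (13 tested, 5 rose and 4 fell). ZEB1, a known repressor of ESRP1 and of epithelial genes, had 31, 20, 23, 7 and 1 reads (slope -2.70 ± 0.70, edgeR adjusted p = 0.00686), and was not called without the 0:100 library (adjusted p = 0.0652). SNAI1 (-2.53) and SNAI2 (-1.95) fell as well. ELF3, an epithelial ETS factor, rose from 43.9 to 573 CPM (slope 3.21), OVOL1, an epithelial repressor of ZEB1, from 6 reads to 32 (3.07), and TWIST2, a factor of the mesenchymal state, from 0 reads to 55 (4.03). GRHL2, which drives epithelial genes, was not called (slope 0.09 ± 0.23). By comparison the epithelial and lung markers KRT18 (2.17), KRT19 (1.58) and NKX2-1 rose, and 5 of 6 in that list were called.

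**Figure D5:**
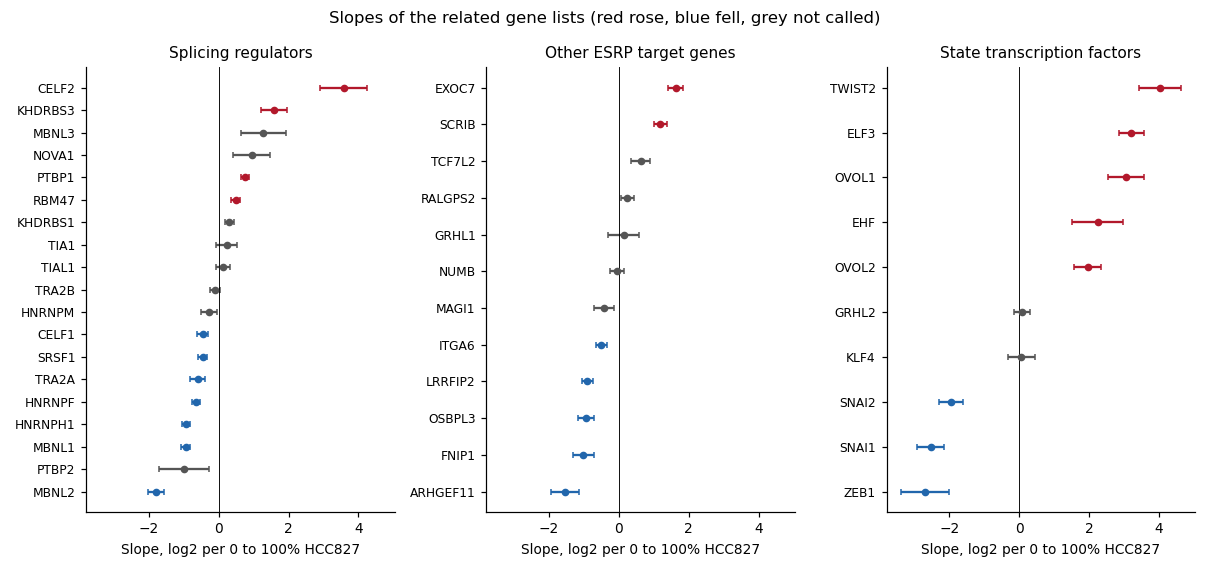
Slope (log2 per 0 to 100% HCC827) with its standard error for each tested gene of the 3 lists, sorted within a list. Red genes rose, blue genes fell and grey genes were not called, with CELF2 (3.58) and MBNL2 (-1.80) at the ends of the splicing regulators.

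The genes whose profiles were most like those of ESRP1 and RBFOX2 were found among 10284 protein-coding genes with at least 100 reads, by the root-mean-square difference of mean-centred log2 CPM over the 5 libraries. For ESRP1 they were HIGD2A (0.019), ANXA11 (0.022) and CNIH4 (0.031). For RBFOX2 they were CTR9 (0.017), SLFN12 (0.043) and CRYBG3 (0.043), each of which was also highest at 75:25. With 5 libraries many genes can come close to any profile.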

How the data were processed

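The authors deposited 1 table per library with an estimated count of reads per transcript, and per the submitters' processing notes minimap2 2.24, Salmon 1.9.0 and the GRCh38 build were used. Their roles, the annotation release and the handling of strand are not given in the sources used here. All but 2 values were exactly whole numbers (tolerance 0), values were rounded, and 161 identifiers listed a second time were summed. Identifiers were matched to GENCODE v44 (224076 of 227751 human transcripts, 98.6% of human reads) and summed per gene. Totals ran from 2932250 to 4058751 reads. PCR copies count as separate reads, so intervals and the limit of 3 reads for a count of 0 cover counting error only.

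Slopes on the HCC827 mass fraction were fitted with edgeR 4.0.16 (R 4.3.3) over all 5 libraries and all genes with at least 10 reads in at least 2 libraries. Its SE comes from the slope and its F statistic. DESeq2 1.42.0 was an alternative. Isoform usage was tested with diffSpliceDGE and shares with exact permutation tests. The scripts were tested on simulated data. Member genes are all named, their transcripts where they held at least 5% of the gene's reads in a library or where a result turned on them, and list genes as the 3 called genes with the steepest slopes in each direction, with a few others named after their values were seen. Members and lists were chosen with earlier results of these data known. The exon choice of FGFR2 is not reported here.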

Additional observations from a re-analysis of the deposited data

How the results depend on the processing

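No replicate of any ratio was available, so each library was left out in turn. The number of members with a called slope, 8 in the analysis as reported, was 6 to 8 over the other scalings, read filters, tests and left-out libraries. CD44, ENAH, SLK, RBFOX2, QKI and ESRP1 were called in each of these. CTNND1 turned to -0.054 under library totals, and MAP3K7, never called, ran from -0.385 to 0.126 over the left-out libraries, above 0 without 0:100. The protein-coding transcripts alone gave ESRP2 a slope of 0.65 (edgeR adjusted p = 0.0966), and the DESeq2 Wald test gave CTNND1 0.37 (adjusted p = 0.0807). Of the shares of splice forms and of isoform usage, 0 passed an adjusted threshold in any alternative, although with 4 libraries the exact test cannot go below p = 0.0833. The CD44 variant slope turned to -1.05 percentage points with protein-coding transcripts and ran from -1.20 (without 100:0) to 0.551 over the left-out libraries. Over the same, the MAP3K7 exon ran from -19.3 to 15.0, QKI-6 from -1.72 to 2.98 and the CTNND1 start at codon 102 from -8.16 to 1.97, each with its sign changed only without 0:100, and the RBFOX2 32-base exon from -1.68 to 0.0754, changed only without 25:75. The cause of these was not tested. No paired analysis was possible because each ratio has a single library and no replicate numbers are shared. The number of reads limits the shares of MAP3K7 and FGFR2 most.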
